A study of Homo sapiens with 42 samples.

Results

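The genes described here are 10 that cells switch on when the kinase ERK is active and that hold back, or carry on, the signal of the same pathway: DUSP4, DUSP5, DUSP6, DUSP7, SPRY2, SPRY4, SPRED1, SPRED2, ETV4 and ETV5. They were taken by symbol, each matching 1 row, from a count table of 57353 gene names, and all 10 were among the 12939 genes that passed the filter on low counts. The cells were MOLM-13, an established acute myeloid leukemia line that carries an internal tandem duplication in the receptor FLT3 and is labelled WT, so that no engineered allele enters any group. They were kept for 12 hours in RPMI with vehicle (DMSO), with 3 nM quizartinib (AC220, a FLT3 inhibitor) or with the combo of 3 nM quizartinib and 10 nM everolimus (an mTOR inhibitor), or in hBMSC-CM, which is RPMI mixed with medium conditioned by the HS-5 bone marrow stromal line, with vehicle, quizartinib, everolimus or the combo. RNA was sequenced both from whole lysate (input) and from heavy polysomes, the gradient fractions of messages that carry many ribosomes, with 3 replicates in each of the 14 groups and 42 libraries in all. RPMI with everolimus alone is not among the 42 libraries, so the effect of everolimus alone in RPMI cannot be given. MOLM-13 is 1 line, so other FLT3-mutant cells are outside these data.

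FLT3 that is mutated in this way signals without its ligand through RAS, RAF, MEK and ERK. Active ERK induces its own brakes: the DUSP genes encode MAP kinase phosphatases, of which DUSP6 and DUSP7 act on ERK in the cytoplasm and DUSP4 and DUSP5 in the nucleus, the Sprouty proteins (SPRY2, SPRY4) restrain signalling between receptors and RAS, and the SPRED proteins (SPRED1, SPRED2) bring the RAS inactivator neurofibromin to the membrane. ETV4 and ETV5 are ETS transcription factors of the PEA3 group, which carry the ERK signal to further genes. Messages of such genes are widely read as a gauge of ERK output.

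The input libraries held between 19.4 and 37.2 M counts and the polysome libraries between 21.5 and 38.8 M. All 9 myeloid markers, PTPRC, CD33, SPI1, FLT3 and LYZ among them, were detected in every input library, at a summed 1328 to 2334 CPM (reads of a gene per M counts of the library). Libraries with the same replicate number deviated together in every condition but everolimus: over all genes the correlation of their deviations was 0.284 to 0.658 between input groups, and -0.059 to 0.002 wherever the everolimus group was in the pair. The everolimus libraries stand apart from the other 6 conditions in this respect, and treatment and batch cannot be told apart in comparisons with them. Values below are CPM after TMM scaling, which makes them relative to the other messages of the library. Tests are edgeR's quasi-likelihood test over 12939 genes, and a gene was called changed when its Benjamini-Hochberg adjusted p was under 0.05. In bulk RNA, fewer cells that express a gene and less of its RNA per cell cannot be told apart.

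The 10 genes sat at very different levels. Per kilobase of annotated exon (GENCODE models), input RNA of RPMI vehicle cells held 12.2 ± 2.49 CPM per kb of DUSP7 (SD, n = 3) and 4.73 ± 0.732 of DUSP6, against 0.0810 ± 0.0245 of DUSP4. ETV4 (4.08 ± 1.18 CPM per kb), ETV5 (4.01 ± 0.347), SPRY2 (3.63 ± 1.30) and SPRED2 (3.48 ± 0.863) followed DUSP6, and neighbours in this order overlapped. Then came DUSP5 with 1.30 ± 0.187, SPRED1 with 0.940 ± 0.0851 and SPRY4 with 0.460 ± 0.149 CPM per kb, and these 3 did not overlap each other. DUSP4 was barely expressed, with 0 to 38 reads in any input library, and it passed the filter only through the polysome libraries of everolimus-treated cells: its mean over all libraries was 1.03 CPM, and 0.549 CPM without those, below the limit of 1. By condition, the mean input level was lowest in the RPMI drug conditions for 9 of the 10 genes, DUSP7 being the exception (plot of input levels).

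**Figure D1:**
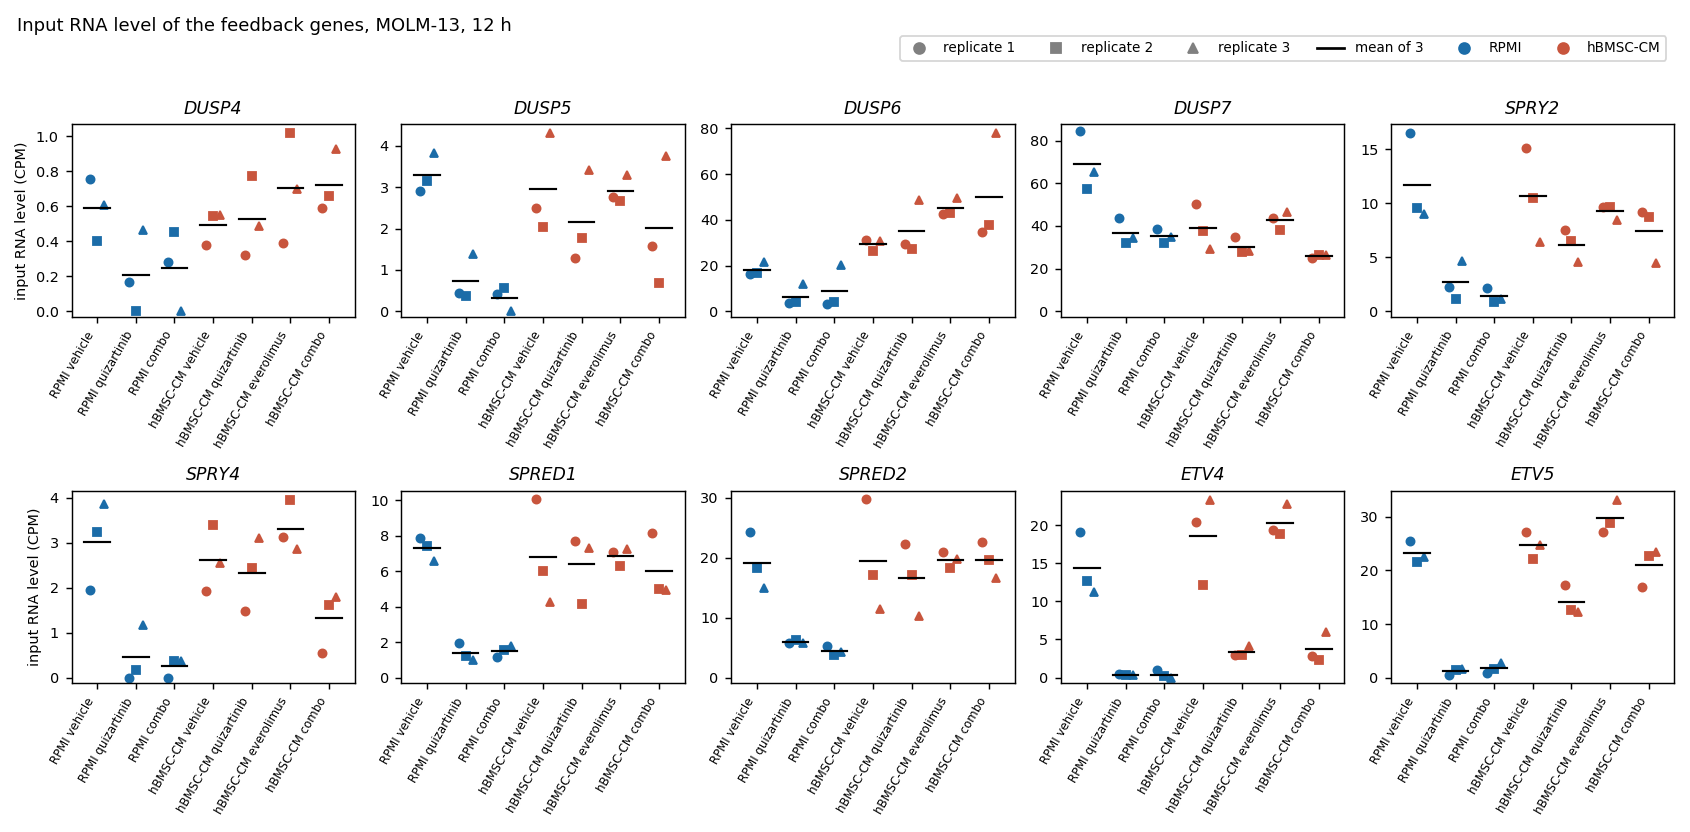
Input RNA level (CPM, linear axis from 0) of the 10 genes in the 7 conditions, 1 panel per gene. Blue points are RPMI and red points hBMSC-CM, the marker gives the replicate number and the bar the mean of 3. ETV4 lay at 0 to 0.942 CPM in the RPMI drug conditions and at 2.29 to 6.04 CPM under the same drugs in hBMSC-CM.

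The start regions of the genes were read for letters that known factors bind, since these genes share a pathway. RefSeq (GRCh38.p14) gave windows of 300 bases, from 250 before to 50 after a start, for 6 of the genes (DUSP6, DUSP7, SPRY2, SPRY4, SPRED1 and SPRED2) with 9 windows, and both strands were searched. The ETS core CCGGAA, of the kind that ETV4 and ETV5 bind, lay in 1 of the 9 windows, at SPRY2, against 17.2% of all 34943 windows. The AP-1 motif TGANTCA lay in 1, at SPRED2, against 7.72%, and matched at a pair of places that do not overlap. The CRE TGACGTCA (1.84% of all windows), the STAT motif TTCNNNGAA (7.66%) and the serum response element (1.3%) lay in 0 of the 9. The windows with a match and, for contrast, the DUSP6 window, which has none, are printed as the strand of the gene reads, with matched letters in capitals: SPRY2 at chr13:80341077-80341376, SPRED2 at chr2:65366729-65367028 (the second of its 2 annotated starts) and DUSP6 at chr12:89352452-89352751, all on the minus strand.
SPRY2: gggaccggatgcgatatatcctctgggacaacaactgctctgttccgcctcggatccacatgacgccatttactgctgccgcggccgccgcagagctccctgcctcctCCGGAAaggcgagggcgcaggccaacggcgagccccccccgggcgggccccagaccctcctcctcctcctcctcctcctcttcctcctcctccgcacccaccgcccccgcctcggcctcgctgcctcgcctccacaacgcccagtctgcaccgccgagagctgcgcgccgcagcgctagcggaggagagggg
SPRED2: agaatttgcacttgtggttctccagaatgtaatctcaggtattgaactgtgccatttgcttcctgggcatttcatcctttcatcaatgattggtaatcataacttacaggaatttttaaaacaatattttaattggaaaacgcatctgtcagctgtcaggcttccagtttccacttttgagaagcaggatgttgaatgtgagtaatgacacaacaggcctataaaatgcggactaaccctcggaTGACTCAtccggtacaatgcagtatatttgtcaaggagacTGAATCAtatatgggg
DUSP6: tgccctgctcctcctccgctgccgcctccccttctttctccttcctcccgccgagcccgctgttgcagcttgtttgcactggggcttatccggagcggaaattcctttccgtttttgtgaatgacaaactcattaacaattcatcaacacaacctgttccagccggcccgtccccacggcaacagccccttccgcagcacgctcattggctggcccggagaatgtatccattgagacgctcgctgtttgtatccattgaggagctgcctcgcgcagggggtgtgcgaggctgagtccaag

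The first comparison asked what FLT3 inhibition did to these messages in plain medium. In RPMI, quizartinib lowered 8 of the 10 genes, where 18% of all genes tested were lower. The median of the 10 log2 changes was -2.14, against 0.08 over all genes, and all 10 were below 0. ETV4 and ETV5 fell furthest, SPRED1, SPRED2, SPRY2, SPRY4 and DUSP5 fell by 3.20-fold to 6.66-fold, and DUSP7 by 1.88-fold. DUSP6 and DUSP4 did not pass the test.

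ETV4 (chromosome 17, 43527844 to 43579620, minus strand, GRCh38) read 19.1, 12.7 and 11.3 CPM in RPMI vehicle cells and 0.411, 0.354 and 0.327 CPM under quizartinib. The groups were far apart, and little of the message was left. Its log2 change was -5.28 (SE 0.54, 39-fold lower, adjusted p = 1.59e-09). ETV5 (chromosome 3, 186046314 to 186110318, minus strand) read 25.4, 21.6 and 22.5 CPM with vehicle and 0.439, 1.47 and 1.61 CPM with quizartinib. All 3 treated libraries of ETV5 lay far below every vehicle library, a log2 change of -4.30 (SE 0.44, 19.7-fold lower, adjusted p = 1.75e-09). Under the combo in RPMI, ETV4 read 0.942, 0.186 and 0 CPM and ETV5 0.816, 1.60 and 2.69 CPM. Both ranges overlapped those of quizartinib alone, and the ETV4 library at 0 reads allowed up to 0.0949 CPM. ETV4 shares exon positions with DHX8 on the opposite strand and ETV5 with DGKG on its own strand, and whether counting used the strand is not given in the sources used here.

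The SPRED genes, the adaptors that bring neurofibromin to RAS, fell together. SPRED1 (chromosome 15, 38252836 to 38357249, plus strand) went from 7.85, 7.44 and 6.56 CPM to 1.95, 1.24 and 1.01 CPM, a log2 change of -2.38 (SE 0.36, adjusted p = 3.09e-06). SPRED2 (chromosome 2, 65310851 to 65432637, minus strand) went from 24.3, 18.3 and 14.9 CPM to 5.84, 6.30 and 5.78 CPM, a change of -1.68 (SE 0.29, adjusted p = 2.40e-05). Neither gene's groups overlapped, and the quizartinib libraries of SPRED2 were tighter than its vehicle libraries. With the combo in RPMI, SPRED1 stood at 1.16, 1.57 and 1.77 CPM and SPRED2 at 5.24, 3.83 and 4.30 CPM. Each SPRED2 value of the combo lay below each value of quizartinib alone, yet the difference of -0.42 (SE 0.29) did not pass the test.

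Of the Sprouty genes, SPRY2 (chromosome 13, 80335976 to 80341126, minus strand) read 16.5, 9.53 and 8.96 CPM with vehicle and 2.28, 1.11 and 4.69 CPM with quizartinib in RPMI, a log2 change of -2.12 (SE 0.40, adjusted p = 6.51e-05). SPRY4 (chromosome 5, 142310427 to 142326455, minus strand), a low message, read 1.94, 3.24 and 3.86 CPM with vehicle and 0, 0.177 and 1.17 CPM with quizartinib, a change of -2.74 (SE 0.79, adjusted p = 0.00671). In both genes the groups were separate and replicate 3 was the highest quizartinib library. Without that culture the change was -2.79 for SPRY2 and -5.00 for SPRY4, so that the size of the SPRY4 change rests on 1 culture. The SPRY4 library at 0 reads allowed up to 0.0823 CPM.

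Among the phosphatases, DUSP5 (chromosome 10, 110497907 to 110511533, plus strand) fell from 2.90, 3.16 and 3.82 CPM to 0.439, 0.379 and 1.39 CPM, a log2 change of -2.16 (SE 0.62, adjusted p = 0.00616). DUSP7 (chromosome 3, 52048919 to 52056571, minus strand) fell from 84.6, 57.1 and 65.2 CPM to 43.6, 31.8 and 34.5 CPM, a change of -0.91 (SE 0.28, adjusted p = 0.0114). The groups of DUSP5 and of DUSP7 did not overlap, but the DUSP7 call was lost without quizartinib replicate 2 (-0.82, adjusted p = 0.0512) or vehicle replicate 1 (-0.74, adjusted p = 0.0727). DUSP6 (chromosome 12, 89347235 to 89352501, minus strand) read 16.4, 16.9 and 21.5 CPM with vehicle and 3.40, 4.05 and 11.9 CPM with quizartinib. Each treated library of DUSP6 was below each vehicle library, replicate 3 far less so than the others, and the change of -1.50 (SE 0.69) had an adjusted p of 0.0922. With the replicate number as a block it was -1.71 (adjusted p = 0.00474), and without quizartinib replicate 3 it was -2.30 (adjusted p = 0.0117). Under the combo DUSP6 showed the same spread, with 2.98 and 3.86 CPM in replicates 1 and 2 and 20.4 CPM in replicate 3. Its exons overlap an unnamed gene on the opposite strand (ENSG00000274021). DUSP4 (chromosome 8, 29333064 to 29350684, minus strand) read 0.757, 0.402 and 0.609 CPM with vehicle and 0.165, 0 and 0.464 CPM with quizartinib, groups that overlapped, with an adjusted p of 0.173 for its change of -1.49. Without quizartinib replicate 3 the change of DUSP4 was -2.83 (adjusted p = 0.0403).

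**Figure D2:**
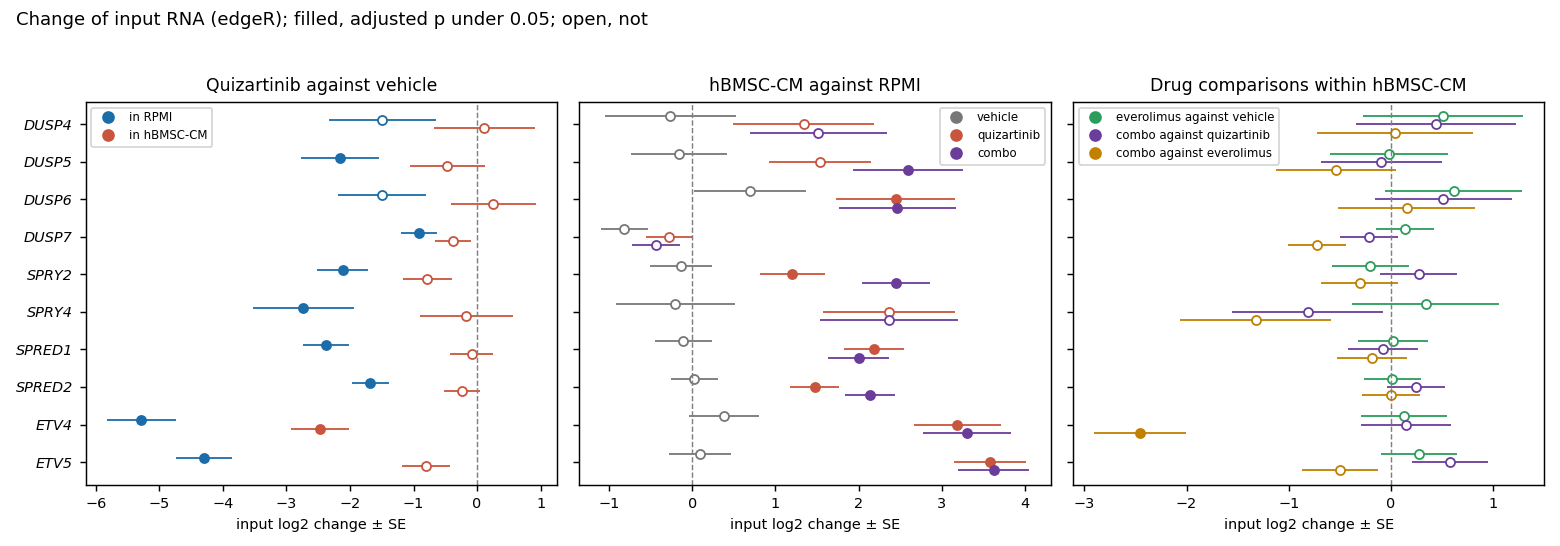
Log2 change of input RNA (points, with SE bars, edgeR) of the 10 genes for the quizartinib effect in RPMI and in hBMSC-CM, for the effect of medium under the same drug, and for comparisons between drugs in hBMSC-CM. Filled points passed an adjusted p of 0.05 and open points did not. ETV4 is at -5.28 in RPMI and -2.47 in hBMSC-CM, and hBMSC-CM against RPMI without drug runs from -0.82 to 0.69.

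In hBMSC-CM the same dose of quizartinib lowered 1 of the 10 genes, ETV4, where 6.84% of all genes were lower, and the median of the 10 changes was -0.30 against 0.01 over all genes. ETV4 read 20.4, 12.2 and 23.3 CPM with vehicle and 2.99, 2.95 and 4.16 CPM with quizartinib. These groups were clearly separate, a log2 change of -2.47 (SE 0.45, 5.55-fold lower, adjusted p = 4.07e-04). ETV5 read 27.3, 22.1 and 24.7 CPM with vehicle and 17.4, 12.6 and 12.3 CPM with quizartinib. All ETV5 values with drug were below all without, but the change of -0.81 (SE 0.38) had an adjusted p of 0.161, or 0.0349 with a replicate block within each fraction. SPRY2 stood at 15.1, 10.4 and 6.43 CPM with vehicle and 7.55, 6.45 and 4.52 CPM with quizartinib, groups that overlapped (-0.78, SE 0.38, adjusted p = 0.182). The other 7 genes had differences of -0.47 to 0.25, and their groups overlapped. Among those with overlapping groups, SPRY2, DUSP5 (-0.47) and DUSP7 (-0.37) were lower in 3 of 3 same-numbered pairs. SPRED1, for example, stood at 10.1, 6.0 and 4.25 CPM with vehicle and at 7.68, 4.16 and 7.31 CPM with quizartinib, a difference of -0.09 (SE 0.34).

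Whether the drug effect differed between media was tested as an interaction. The effect was less negative in hBMSC-CM for 3 genes, where 1.79% of all genes were called in that direction. The difference was above 0 for all 10 genes, with a median of 1.72 against -0.04 over all genes. For ETV5 it was 3.49 (SE 0.56, adjusted p = 2.05e-04), for ETV4 2.81 (SE 0.67, adjusted p = 0.0147) and for SPRED1 2.29 (SE 0.49, adjusted p = 0.00655). SPRED2, with 1.45 (SE 0.41), stood at an adjusted p of 0.0531, and with the replicate number as a block it passed (1.43, adjusted p = 0.00896). With a block within each fraction SPRY4 passed too (2.78, adjusted p = 0.0298), as it did under limma voom (4.07, adjusted p = 0.0279). The ETV4 call was lost without RPMI vehicle replicate 1 (2.55, adjusted p = 0.0519) or hBMSC-CM vehicle replicate 2 (2.58, adjusted p = 0.0579). Without RPMI quizartinib replicate 3, SPRY2 (2.01, adjusted p = 0.0363) and SPRY4 (4.83, adjusted p = 0.0204) passed as well. SPRED2 also passed without RPMI vehicle replicate 3 (adjusted p = 0.0497), hBMSC-CM quizartinib replicate 3 (adjusted p = 0.0219) or hBMSC-CM vehicle replicate 1 (adjusted p = 0.00868). DUSP7, at 0.54 (SE 0.40), had the smallest difference of the 10.

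Without drug, hBMSC-CM changed 0 of the 10 genes against RPMI by edgeR, DESeq2 or limma voom, where 1.51% of all genes changed. By edgeR, 1 of the 10, DUSP7, had an unadjusted p under 0.05, as did 970 of the 12939 genes tested. DUSP7 read 50.5, 37.6 and 29.4 CPM in hBMSC-CM against 84.6, 57.1 and 65.2 CPM in RPMI. All its hBMSC-CM values were lower (-0.82, SE 0.28, adjusted p = 0.22), and with the replicate number as a block DUSP7 passed (-0.81, adjusted p = 0.021). DUSP6 ran the other way, with 31.2, 26.4 and 30.7 CPM in hBMSC-CM against 16.4, 16.9 and 21.5 CPM in RPMI, groups that did not overlap, at 0.69 (SE 0.67, adjusted p = 1). The remaining 8 genes lay between -0.26 and 0.38.

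Under quizartinib, hBMSC-CM raised 6 of the 10 genes over RPMI, where 6.11% of all genes were higher, and the median of the 10 was 1.86 against -0.03. ETV5 led, with 17.4, 12.6 and 12.3 CPM in hBMSC-CM against 0.439, 1.47 and 1.61 CPM in RPMI (12.0-fold higher, log2 3.58, SE 0.43, adjusted p = 2.24e-07). ETV4 was 9.12-fold higher (log2 3.19, SE 0.52, adjusted p = 4.26e-05), but its 3 hBMSC-CM libraries, at 2.95 to 4.16 CPM, stayed below each vehicle library of either medium. ETV5 with quizartinib in hBMSC-CM, at 12.3 to 17.4 CPM, was also below each of its vehicle libraries. SPRED1 (4.55-fold, adjusted p = 5.35e-05) and SPRED2 (2.77-fold, adjusted p = 5.96e-04) were higher too, and overlapped their vehicle libraries in hBMSC-CM, SPRED2 reading 22.3, 17.1 and 10.3 CPM. DUSP6, at 29.5, 27.4 and 48.6 CPM against 3.40, 4.05 and 11.9 CPM, was 5.44-fold higher (log2 2.44, SE 0.71, adjusted p = 0.024). That DUSP6 call was lost without RPMI quizartinib replicate 1 (2.14, adjusted p = 0.112) or 2 (2.20, adjusted p = 0.109), or hBMSC-CM quizartinib replicate 3 (2.14, adjusted p = 0.109).

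SPRY2, SPRY4 and DUSP5 sat near the threshold in that comparison. SPRY2, at 7.55, 6.45 and 4.52 CPM against 2.28, 1.11 and 4.69 CPM, overlapped between media and passed narrowly (2.30-fold, adjusted p = 0.0495, and 0.00245 to 0.28 over the alternatives). It was lost without RPMI quizartinib replicate 1 (1.09) or 2 (0.83) and without hBMSC-CM quizartinib replicate 1 (1.03) or 2 (1.17), while without RPMI quizartinib replicate 3 the log2 difference was 1.89 in place of 1.2. SPRY4, at 1.48, 2.43 and 3.10 CPM against 0, 0.177 and 1.17 CPM, missed the threshold (5.15-fold, adjusted p = 0.0576). It passed with the replicate block (log2 2.65, adjusted p = 0.00273) and without RPMI quizartinib replicate 3 (log2 4.64, adjusted p = 0.00176). SPRY4 also passed under DESeq2 (log2 2.37, adjusted p = 0.0137) and limma voom (log2 3.91, adjusted p = 0.00512). DUSP5, at 1.28, 1.76 and 3.41 CPM against 0.439, 0.379 and 1.39 CPM, had an adjusted p of 0.142. With a block within each fraction the adjusted p of DUSP5 was 0.0326, and without RPMI quizartinib replicate 3 it was 0.0391 (log2 2.40 in place of 1.53). DUSP7 was the only one of the 10 below 0 (-0.28, SE 0.28).

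Under the combo, hBMSC-CM raised 7 of the 10 genes over RPMI, where 4.11% of all genes were higher, with a median of 2.41 against -0.03. ETV5 read 16.9, 22.8 and 23.4 CPM in hBMSC-CM against 0.816, 1.60 and 2.69 CPM in RPMI (12.4-fold, adjusted p = 1.58e-07). ETV4 read 2.79, 2.29 and 6.04 CPM against 0.942, 0.186 and 0 CPM (log2 3.30, adjusted p = 3.31e-05), and was at 5.16 without RPMI combo replicate 1. A fit of only these groups lost that ETV4 call (adjusted p = 0.0729). SPRED1, SPRED2 and SPRY2 were 4.0-fold, 4.41-fold and 5.46-fold higher, with adjusted p of 2.42e-04, 3.94e-06 and 7.65e-05, and all 3 were separate between media. DUSP6, at 34.6, 37.8 and 77.9 CPM against 2.98, 3.86 and 20.4 CPM, was 5.53-fold higher (log2 2.47, adjusted p = 0.0293). Its call was lost without RPMI combo replicate 1 (2.05, adjusted p = 0.203) or 2 (2.10, adjusted p = 0.109), or hBMSC-CM combo replicate 3 (1.99, adjusted p = 0.172), and the difference was 3.88 without RPMI combo replicate 3. DUSP5, at 1.59, 0.680 and 3.76 CPM against 0.408, 0.559 and 0 CPM, was 6.05-fold higher (adjusted p = 0.011). The DUSP5 call was lost without RPMI combo replicate 3 (2.05, adjusted p = 0.0762) or hBMSC-CM combo replicate 3 (1.77, adjusted p = 0.197), and under limma voom (adjusted p = 0.0642). SPRY4 missed the threshold (log2 2.37, adjusted p = 0.104). It passed with the replicate block (2.42, adjusted p = 0.0135) and under DESeq2 (2.38, adjusted p = 0.0267).

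Markers of stromal cells, the source of the conditioned medium, were followed beside these results. Their summed input level was 2.74 to 7.64 CPM in RPMI vehicle and 3.06 to 8.44 CPM in hBMSC-CM vehicle, and under quizartinib 14.4 to 47.2 CPM in RPMI and 12.3 to 30.7 CPM in hBMSC-CM. Of the 14 markers, COL3A1, LUM, POSTN and THY1 had 0 reads in every input library. The 2 that passed the filter, COL1A1 (4.43, adjusted p = 1.52e-05) and TAGLN (0.98, adjusted p = 0.0119), rose with quizartinib in RPMI, and in hBMSC-CM as well (4.24, adjusted p = 3.71e-04, and 1.02, adjusted p = 0.0255), where ETV4 alone of the 10 genes fell. Neither differed between media under quizartinib by the test, with adjusted p of 0.6 and 0.531. The study states that the conditioned medium was sterile-filtered before use, and the RPMI cultures received none of it. The source of these marker reads was not tested.

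Further comparisons added everolimus. In RPMI, the combo changed 0 of the 10 genes against quizartinib by edgeR, DESeq2 or limma voom, where 0.00773% of all genes changed. By edgeR, 1 of the 10, SPRY2 (-0.98, SE 0.40), had an unadjusted p under 0.05, as did 172 of the 12939 genes tested. In hBMSC-CM the same comparison gave 0 of 10 by all 3 tools, with 0.24% of all genes changed. An unadjusted p under 0.05 was reached there by 0 of the 10 and by 789 of all genes. The differences there ran from -0.81 for SPRY4 to 0.58 for ETV5, with SEs of 0.28 to 0.78. DUSP7 was lower in each combo library (25.1, 26.3 and 26.5 CPM) than in each quizartinib library (34.8, 27.6 and 28.1 CPM), a difference of -0.22 (SE 0.28) that did not pass. Everolimus alone against vehicle in hBMSC-CM gave 0 of 10 by the 3 tools, with 0.41% of all genes changed. The differences ran from -0.20 for SPRY2 to 0.61 for DUSP6. An unadjusted p under 0.05 was reached by 0 of the 10 and by 1123 of all genes. ETV4 read 19.4, 18.9 and 22.7 CPM and ETV5 27.2, 28.9 and 33.2 CPM under everolimus, and both overlapped vehicle cells.

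Against everolimus, the combo lowered ETV4 alone among the 10 in hBMSC-CM, where 7.54% of all genes were lower. ETV4 stood at 2.79, 2.29 and 6.04 CPM with the combo (log2 -2.46, SE 0.45, 5.49-fold lower, adjusted p = 2.95e-04). DUSP7 fell short of the threshold, at 25.1, 26.3 and 26.5 CPM with the combo against 43.8, 38.3 and 46.7 CPM with everolimus (-0.72, SE 0.28, adjusted p = 0.099). SPRY4 (0.558, 1.61 and 1.79 CPM against 3.13, 3.95 and 2.86 CPM) and ETV5 were also lower in each combo library than in each everolimus library, with adjusted p of 0.281 and 0.452. In a fit of only these groups DUSP7 (adjusted p = 0.00238), SPRY4 (adjusted p = 0.0357) and ETV5 (adjusted p = 0.0422) passed. This comparison and that of everolimus with vehicle rest on the libraries that stand apart.

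The next comparison set polysome against input RNA within each condition, a measure of how far a message sits on many ribosomes relative to the average message. By the test, 3 of the 10 genes differed in RPMI vehicle, 4 in RPMI quizartinib, 3 in RPMI combo, 4 in hBMSC-CM vehicle, 3 in hBMSC-CM quizartinib, 5 in hBMSC-CM everolimus and 4 in hBMSC-CM combo. Over all genes these shares were 65.4%, 57.9%, 59.3%, 63.6%, 58.7%, 58.6% and 63%, so the 10 genes did not stand out by number. The 5 under everolimus include DUSP4, which passed the filter only through those polysome libraries and had to be high there. A block by replicate number gave 5 in RPMI vehicle, with SPRED1 (-0.78, adjusted p = 0.0217) and ETV5 (0.80, adjusted p = 0.0445) added, and in hBMSC-CM combo DUSP5 was added (1.14, adjusted p = 0.0494). A block within each fraction added the same 3, and also SPRED2 in RPMI combo (-0.51, adjusted p = 0.0483), ETV4 in hBMSC-CM quizartinib (0.83, adjusted p = 0.0465) and ETV5 under everolimus (0.76, adjusted p = 0.0175), and lost none. Blocking by culture added SPRED1 in RPMI vehicle (-0.78, adjusted p = 0.0278) and ETV4 in hBMSC-CM quizartinib (0.84, adjusted p = 0.0422). It lost ETV5 in RPMI quizartinib (0.99, adjusted p = 0.0652). Values below are polysome minus input in log2 CPM, and scaling by library size alone moved the median of all genes by -0.55 to -0.28 in these comparisons. Values by culture pair the fractions by replicate number. Deviations of such pairs correlated at -0.044 to 0.303 outside everolimus and at -0.020 to 0.015 under it.

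DUSP7 leaned to polysomes in every condition, with fitted differences of 0.79 to 1.37 that passed the test in all 7. Culture by culture it was 0.97, 0.58 and 1.27 in RPMI vehicle, 0.91, 0.64 and 1.03 in RPMI quizartinib, and 1.35, 1.56 and 1.2 under everolimus. It was above 0 in 20 of 21 cultures, hBMSC-CM vehicle replicate 2 being the exception, and in all 7 conditions under each of the 4 scalings. With library size alone it passed under everolimus only. Leaving out 1 culture lost the DUSP7 call in RPMI quizartinib (0.69 without replicate 3), RPMI combo (0.82 without replicate 1, 0.59 without 3), hBMSC-CM vehicle (0.75 without 1, 0.61 without 3), hBMSC-CM quizartinib (0.80 without 1, 0.81 without 3) and hBMSC-CM combo (0.58 without 1, 0.52 without 3).

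ETV5 was at 0.63 to 1.02, above 0 in 7 of 7 conditions under each scaling, and passed in RPMI quizartinib, RPMI combo and hBMSC-CM combo. Each of these ETV5 calls was lost without replicate 1 (0.75, 0.37 and 0.54) or replicate 2 (0.55, 0.95 and 1.00). ETV4 was at 0.83 to 1.31 outside the RPMI drug conditions, for example 1.35, 1.36 and 1.17 in RPMI vehicle, where its cultures were close together. In RPMI quizartinib, where little ETV4 was left, the difference was 0.16 (SE 0.59), and with library size alone ETV4 was below 0 in 2 of the 7 conditions. The ETV4 calls were lost without replicate 1 or 2 in hBMSC-CM vehicle (1.01 and 1.06) and hBMSC-CM combo (1.06 and 0.92), and without any 1 culture under everolimus (0.98 to 1.04), while RPMI combo passed without replicate 1 (2.21, adjusted p = 0.012).

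**Figure D3:**
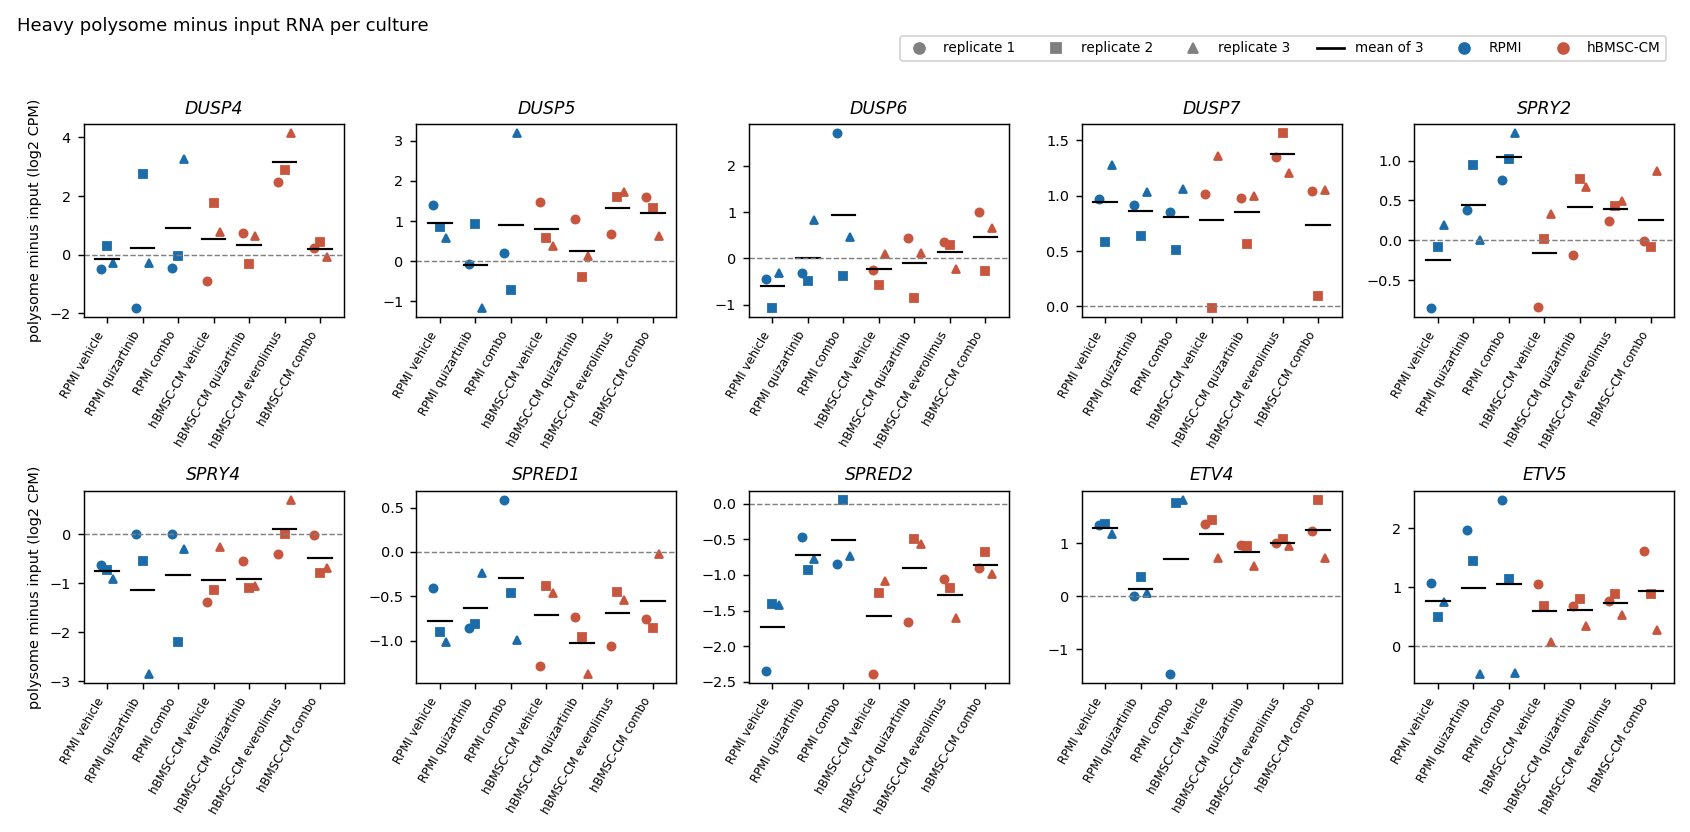
Heavy polysome minus input RNA (log2 CPM) for each culture of the 7 conditions, 1 panel per gene. Markers give the replicate, bars the mean of 3 and the dashed line 0. DUSP7 lies above 0 in 20 of 21 cultures, SPRED2 below 0 in 20 of 21, and DUSP4 is highest under everolimus.

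The SPRED messages leaned the other way. SPRED2 was at -1.75 (SE 0.30, adjusted p = 6.43e-06) in RPMI vehicle, -2.35, -1.41 and -1.42 by culture, and at -1.69 (SE 0.30, adjusted p = 1.10e-05) in hBMSC-CM vehicle. It was below 0 in all 7 conditions under each of the 4 scalings run, and passed in 6, RPMI combo being the exception (-0.50, adjusted p = 0.148). The SPRED2 call in RPMI quizartinib was lost without any 1 culture (-0.87 to -0.62), and that in hBMSC-CM quizartinib without replicate 1 (-0.53). SPRED1 was at -1.01 to -0.26, also below 0 in all 7 conditions under each scaling, and passed in hBMSC-CM vehicle (adjusted p = 0.0456) and hBMSC-CM quizartinib (adjusted p = 0.0135). The first of these was lost under 8 of 13 alternatives, among them DESeq2 (adjusted p = 0.0723) and limma voom (adjusted p = 0.0595). It was also lost without replicate 1 (-0.42) or 2 (-1.0). The call in hBMSC-CM quizartinib was lost under 3 of 13, among them the fit without replicate 3 (-0.82).

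The Sprouty messages and DUSP6 showed less. SPRY4 was below 0 in 6 of 7 conditions, and in all 7 with library size alone. Its largest value, -2.56 in RPMI quizartinib (adjusted p = 0.0284), was -0.83 (adjusted p = 0.616) without replicate 3. The call was also lost under limma voom (-1.12, adjusted p = 0.513) and with only the groups compared (-2.64, adjusted p = 0.126). SPRY4 had 0, 3 and 4 reads in those polysome libraries. SPRY2 passed once (1.03 in RPMI combo, adjusted p = 0.0289), and not without replicate 2 (1.02, adjusted p = 0.0777) or 3 (0.75, adjusted p = 0.217). DUSP6 was at -0.55 to 0.90 and passed in 0 of the 7 conditions, and with no filter on low counts in RPMI combo (0.88, adjusted p = 0.00647).

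DUSP4 is given under everolimus as a description, since these libraries are what brought it past the filter, and they stand apart from the rest. Its polysome RNA there read 2.50, 7.91 and 13.4 CPM (50, 265 and 416 reads), against 0.391, 1.02 and 0.698 CPM in the same-numbered input. No other polysome library held more than 1.99 CPM of DUSP4, and hBMSC-CM vehicle polysomes read 0.176, 1.99 and 0.980 CPM. Polysome minus input of DUSP4 was 2.49, 2.88 and 4.14 by culture under everolimus, and 0.23, 0.44 and -0.07 in the combo. DUSP5 also passed under everolimus (1.44, adjusted p = 0.0337), with 4.44, 8.18 and 11.0 CPM in polysomes against 2.76, 2.67 and 3.30 CPM in input. That DUSP5 call was lost without any 1 of these cultures (1.22 to 1.66).

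Whether a condition moved messages on or off polysomes, relative to the average message, was tested as the difference of these differences. Scaling removes any shift that all messages share. The paper reports that quizartinib in RPMI reduced polysome-bound RNA, with partial restoration in hBMSC-CM that everolimus reversed, and this test cannot show such a shift. Quizartinib in RPMI changed 0 of the 10 genes by edgeR, DESeq2 or limma voom, where 1.55% of all genes changed. By edgeR, 1 of the 10, SPRED2, had an unadjusted p under 0.05, as did 2014 of the 12939 genes tested. For SPRED2 the difference was 1.02 (SE 0.41, adjusted p = 0.212, or 0.0356 with a replicate block within each fraction). Its polysome RNA went from 4.72, 6.85 and 5.50 CPM to 4.22, 3.27 and 3.35 CPM while input RNA went from 24.3, 18.3 and 14.9 CPM to 5.84, 6.30 and 5.78 CPM. The other 9 genes lay between -1.76 and 1.03, with SEs of 0.40 to 1.24. Quizartinib in hBMSC-CM (0% of all genes), hBMSC-CM against RPMI under quizartinib (0%), the combo against quizartinib in hBMSC-CM (0%) and everolimus against vehicle in hBMSC-CM (0%) changed 0 of the 10 by edgeR, DESeq2 and limma voom alike. At an unadjusted p under 0.05 there were 0, 0, 0 and 1 of the 10, the 1 being DUSP4 under everolimus, for which that test is void because of the filter. Of all genes, 288, 450, 273 and 573 were under the same cut, in the same order.

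The wider pathway was followed at the input level, where quizartinib in RPMI raised 16.6% and lowered 18% of all genes, with a median of 0.08. Of 20 genes of the RAS-RAF-MEK-ERK cascade itself, quizartinib in RPMI raised 6 and lowered 2, with a median of 0.32. RPS6KA2, a kinase that ERK activates, rose from 7.71 to 30.0 CPM (log2 1.96, adjusted p = 1.24e-04), SOS2, which loads RAS with GTP, from 17.3 to 39.2 CPM (1.18, adjusted p = 0.0124), and HRAS fell from 34.6 to 17.6 CPM (-0.97, adjusted p = 0.00975). None of these 3 differed between media under quizartinib by the test (adjusted p of 0.107, 0.751 and 0.344). Of 11 other negative regulators of RAS, 10 passed the filter: CBLB, a ubiquitin ligase of receptors, rose (1.82, adjusted p = 5.45e-06), PEBP1, which binds RAF, fell (-1.08, adjusted p = 2.55e-04) and 8 did not pass. Of the 9 myeloid markers 4 rose and 0 fell, among them PTPRC (1.36), FLT3 (1.05) and MEIS1 (1.00). FLT3, the receptor that quizartinib inhibits, was lower in hBMSC-CM than in RPMI under the drug (-2.21, adjusted p = 3.06e-07). The drug effect differed between media for 0 of the 9 markers by the test. Without drug, 1 of the 9 was lower in hBMSC-CM, as were 27 of the 12939 genes tested.

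Close relatives and other targets were counted against the same shares. Of 10 further genes of the MKP, Sprouty, SPRED and PEA3 families 3 passed the filter. Quizartinib in RPMI lowered DUSP2, a nuclear phosphatase, from 15.8 to 2.31 CPM (-2.77, adjusted p = 1.91e-06) and raised DUSP10, which acts on p38 and JNK, from 3.40 to 12.1 CPM (1.83, adjusted p = 1.93e-06), and DUSP1 stood at 0.06 without a call. Under quizartinib DUSP2 (1.53, adjusted p = 0.0111) and DUSP1 (2.04, adjusted p = 0.00265) were higher in hBMSC-CM. Of 13 other genes that ERK induces, 9 passed the filter, and 3 fell in RPMI while 1, MAFF, rose. EGR1 went from 48.7 to 2.70 CPM (-4.17, adjusted p = 6.82e-07), FOSL1 from 27.7 to 1.58 CPM (-4.13, adjusted p = 1.50e-06) and IER3 from 16.6 to 3.11 CPM (-2.41, adjusted p = 7.56e-07). Under quizartinib 6 of these 9 were higher in hBMSC-CM than in RPMI, where 6.11% of all genes were, EGR1 by 4.03, IER3 by 3.83 and FOSL1 by 3.66 on the log2 scale. Without drug 4 of the 9 were higher in hBMSC-CM, where 1.3% of all genes were.

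Across the 21 input libraries the 10 genes kept a shared profile to different degrees. Pearson's r of a gene with the mean of the other 9 (standardised log2 CPM) was 0.93 for ETV5, 0.91 for ETV4 and SPRY2, 0.89 for SPRED1 and SPRED2, 0.82 for DUSP5 and SPRY4, 0.73 for DUSP6, 0.68 for DUSP4 and 0.22 for DUSP7. Among 8634 other genes with at least 10 CPM, those most like the mean profile were MYC (r = 0.98), SIRPB1 (0.97), ECE1 (0.97), RBM38 (0.95) and CLIC1 (0.95). MYC averaged 490 CPM in RPMI vehicle and 42.7 CPM in RPMI quizartinib, against 476 and 377 CPM in hBMSC-CM. The 21 points share conditions and replicate numbers, so these values describe the libraries and carry no test.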

How the data were processed

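RNA from MOLM-13 lysate (input) and heavy polysomes was sequenced in 42 libraries. The authors made poly(A)-selected libraries, trimmed the reads with BBDuk, aligned them to hg38 (Ensembl) and counted them per gene with STAR 2.6.0a; the deposited values are raw counts per gene, and the strand setting is not given in the sources used here. Labels give the same replicate numbers to all groups, and the study calls its replicates biological.

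Rows were summed by gene name (58884 rows, 57353 names), genes with a mean count or mean CPM under 1 were left out (12939 kept, 99.8% of counts), and groups were compared with edgeR 4.0.16 (R 4.3.3; TMM, robust dispersions, glmQLFit, 14 group means, no block; common biological coefficient of variation 0.279), adjusted by Benjamini-Hochberg. SEs are the log2 change over the square root of F. Input libraries had TMM factors of 1.06 to 1.25 and polysome libraries of 0.705 to 1.04. A prior count of 2 entered log2 CPM, and a count of 0 was taken to allow 3 reads, counting error only. Replicate libraries differed far beyond sampling noise (chi-square per degree of freedom 4.96 to 307 over 42 pairs), so none was a duplicate. The fit was tested on simulated data.

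Alternatives were DESeq2 1.42.0, limma voom 3.58.1, other scalings, no filter, only the groups compared, replicate and culture blocks, and leaving out 1 culture at a time. Same-numbered libraries correlated over 0.1 in 15 of 15 pairs of groups without everolimus, in each fraction, and in 0 of 6 with it. All 18 input libraries outside everolimus correlated best with their own number. The numbers were therefore taken to pair all groups but everolimus within a fraction. A replicate block without the everolimus groups was added after seeing the data. Gene models are GENCODE v44. Named genes are the 10 members, up to 3 genes per list with the largest change among those called for quizartinib in RPMI, and the 5 genes most like the mean profile; MAFF, DUSP1 and those named as stromal markers were chosen after their values were seen. The members and lists were chosen with earlier results of these data known.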

Additional observations from a re-analysis of the deposited data

Results flagged for a closer look

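The effect of quizartinib on input RNA differed between media for 3 of the 10 genes by the interaction test of edgeR. The difference of the log2 changes, hBMSC-CM minus RPMI, was 3.49 for ETV5 (SE 0.56, adjusted p = 2.05e-04), 2.81 for ETV4 (SE 0.67, adjusted p = 0.0147) and 2.29 for SPRED1 (SE 0.49, adjusted p = 0.00655). Groups of 3 replicates were not tested for single libraries far from the rest.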

How the results depend on the processing

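Over 2060 values under other settings, 1875 kept their side of the threshold and direction, 41 called values lost their call, 81 gained one, 63 uncalled values changed sign and 0 called values did. Over 1170 values with 1 culture left out these were 1001, 51, 10, 108 and 0. The cause of these changes was not tested.

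Counts of the 10 genes called moved by over 1.5 times as follows. A block by replicate number changed 3 counts: the medium without drug gave 1 (0 before), combo against everolimus in hBMSC-CM 2 (1 before) and polysome minus input in RPMI vehicle 5 (3 before). With a replicate block within each fraction, quizartinib in hBMSC-CM gave 2 (1 before), its difference between media 5 (3 before), the medium without drug 1, combo against everolimus 3, polysome minus input in RPMI vehicle 5, and its change with quizartinib in RPMI 1 (0 before). Such a block without the everolimus groups, chosen after seeing the data, gave 2, 5, 1 and, for polysome minus input in RPMI vehicle, 6. The block changed single calls of the input comparisons as given beside them and also DUSP7 and SPRY4 against everolimus, where the numbers do not pair the samples, and DUSP7 between media under the combo in the added fit (-0.47, adjusted p = 0.0205); it changed no other call there. With limma voom the difference between media gave 5, and polysome minus input gave 5 in RPMI vehicle, 1 in RPMI quizartinib (4 before) and 1 in RPMI combo (3 before). With only the groups compared, hBMSC-CM against RPMI under the combo gave 4 (7 before), combo against everolimus 4, and polysome minus input 6 in RPMI vehicle, 1 in RPMI quizartinib, 1 in RPMI combo and 8 under everolimus (5 before). With library size alone, polysome minus input gave 1 in RPMI combo, 2 in hBMSC-CM vehicle (4 before) and 2 in hBMSC-CM combo (4 before). With 1 culture left out, the difference between media gave 2 to 5, and polysome minus input 1 to 2 in RPMI quizartinib and RPMI combo, 1 to 3 in hBMSC-CM vehicle, quizartinib and combo, and 3 to 3 under everolimus. Depth limits DUSP4, SPRY4 and, in the RPMI drug conditions, ETV4 and DUSP5, where single libraries held 0 reads.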
